A study of Mus musculus with 6 samples.

Results

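The interleukin-1 (IL-1) family and the inflammasome were examined here through 10 genes: the ligands Il1b, Il1a, Il18 and Il33, the receptor antagonist Il1rn, the receptors Il1r1, Il1r2 and Il1rap, the sensor Nlrp3 and the protease Casp1. The genes were chosen by a measured value, since Il1b lay higher in each TMP195 tumour than in any vehicle tumour of these same arrays. Their differences between the dosing groups are therefore given as a description, with no test. A probe set annotated to that gene alone was found for 9 of the 10 genes, out of 19937 genes in all, and each of the 9 had 1 such probe set. Il1r1, the receptor that transmits the IL-1 signal, was not analysed here.

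The tumours came from 6 female FVBN mice, 3 given DMSO as the vehicle and 3 given TMP195, an inhibitor of class IIa histone deacetylases, at 50 mg/kg once a day by intraperitoneal injection. Mice of both groups carried the MMTV-PyMT transgene, in which a mammary tumour virus promoter directs the polyoma middle T oncogene to the mammary epithelium, and were 75 to 90 days old. The duration of dosing is given as 5 days in one source and as 2 weeks in another. A single whole tumour from each mouse was profiled on an Affymetrix array, so epithelium, stroma and immune cells were measured together. In such bulk tissue, fewer cells of a type and less RNA per cell cannot be told apart. The mammary epithelial genes Krt8 and Epcam were bright in every tumour, at percentiles 98.8 and 97.3 of mean intensity.

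IL-1 beta and IL-18 are made as inactive precursors that caspase-1 cuts once an inflammasome has assembled around a sensor such as NLRP3. IL-1 alpha and IL-33 act as alarm signals that cells release when damaged. IL-1 alpha and IL-1 beta share the receptor encoded by Il1r1 and the accessory chain encoded by Il1rap, while the antagonist encoded by Il1rn and the decoy receptor encoded by Il1r2 hold the signal back. In tumours, Il1b is best known as a product of myeloid cells. The arrays read transcripts and not the cutting or release of the proteins.

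The start sites of Il1b and Il1a lie 61.2 kb apart on chromosome 2, on the minus strand, in RefSeq's annotation of GRCm38.p6. Both promoters are shown because the genes are neighbours. Il1b was chosen for its separated groups and Il1a was dim, so no difference between the neighbours is read from their values. Each window runs from 250 bases before the start site to 50 bases from it, at chr2:129371090-129371389 for Il1b and chr2:129309923-129310222 for Il1a. Capitals mark matches to the TATA box (TATAAA) and to a C/EBP motif (TTNNGNAA), on either strand.
Il1b: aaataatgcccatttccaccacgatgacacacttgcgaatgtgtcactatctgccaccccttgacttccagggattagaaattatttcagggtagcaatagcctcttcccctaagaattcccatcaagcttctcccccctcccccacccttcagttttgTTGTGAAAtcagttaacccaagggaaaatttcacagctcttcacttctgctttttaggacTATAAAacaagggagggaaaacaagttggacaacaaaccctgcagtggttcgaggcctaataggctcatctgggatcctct
Il1a: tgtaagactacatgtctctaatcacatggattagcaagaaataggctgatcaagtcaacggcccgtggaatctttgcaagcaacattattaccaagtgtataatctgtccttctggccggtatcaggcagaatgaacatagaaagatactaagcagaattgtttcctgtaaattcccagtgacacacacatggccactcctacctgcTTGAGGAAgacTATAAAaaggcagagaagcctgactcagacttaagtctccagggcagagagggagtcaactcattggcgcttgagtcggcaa

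The TATA box match stood at bases -31 to -26 in Il1b and -32 to -27 in Il1a, counted from the start site. The C/EBP match stood at -91 to -84 in Il1b and at -43 to -36 in Il1a, and in neither window did these matches overlap. Of 32851 promoter windows of this length, 13.6% hold the TATA box letters and 40.7% the C/EBP letters. The members have 15 windows, since some have several start sites, and 6 of them held the TATA box letters and 10 the C/EBP letters. The letters were counted anywhere in a window. Those of the TATA box also stood at -203 to -198 in a window of Il33 and at 15 to 20 in a window of Il1rn. Windows of Il1rn overlap, so the same match can be counted repeatedly. By gene, 5 of the 10 members held the TATA box letters and 6 the C/EBP letters. An NF-kappaB motif (GGG and CC with 5 bases between them) was present in 8 of the 15 windows, beside 50.8% of all windows, and a MEF2 motif (CTA and TAG with 4 bases between them) in 0 of 15, beside 3.69% of all. Neither of these motifs was found in the windows of Il1b and Il1a. By gene, 5 of the 10 members held the NF-kappaB motif. A PU.1 motif (GAGGAA) was present in 4 of the 15 windows, beside 28.3% of all windows, and its match in the Il1a window lies inside the C/EBP match. It was not found in the Il1b window. All of these motifs were chosen after the data had been seen. A match describes the letters and is not a measured binding site.

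Array values are given as log2 intensity, and differences as TMP195 minus vehicle on that scale. Over all genes, 0 of 19937 (0%) passed an adjusted p of 0.05 in limma, and 502 (2.52%) had an unadjusted p under 0.05. The groups did not overlap in 1332 genes (6.68%), of which 692 were higher under TMP195 (3.47% of all genes). In TMP195 tumour 2, 150 genes lay over 2-fold above every other tumour and 89 over 2-fold below, and in vehicle tumour 2 these counts were 60 and 5. In the remaining 4 tumours no count was above 12. Values without these tumours are given for members, and for medians of pathway lists, that rest on them. They are not given for single genes outside the members. Brightness was gauged against 1190 olfactory and vomeronasal receptor genes, which mammary tissue is not known to use. Their 95th percentile was a log2 intensity of 3.95. The means of 6 members lay above that value, and those of Il1a, Il1r2 and Nlrp3 lay below it.

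**Figure D1:**
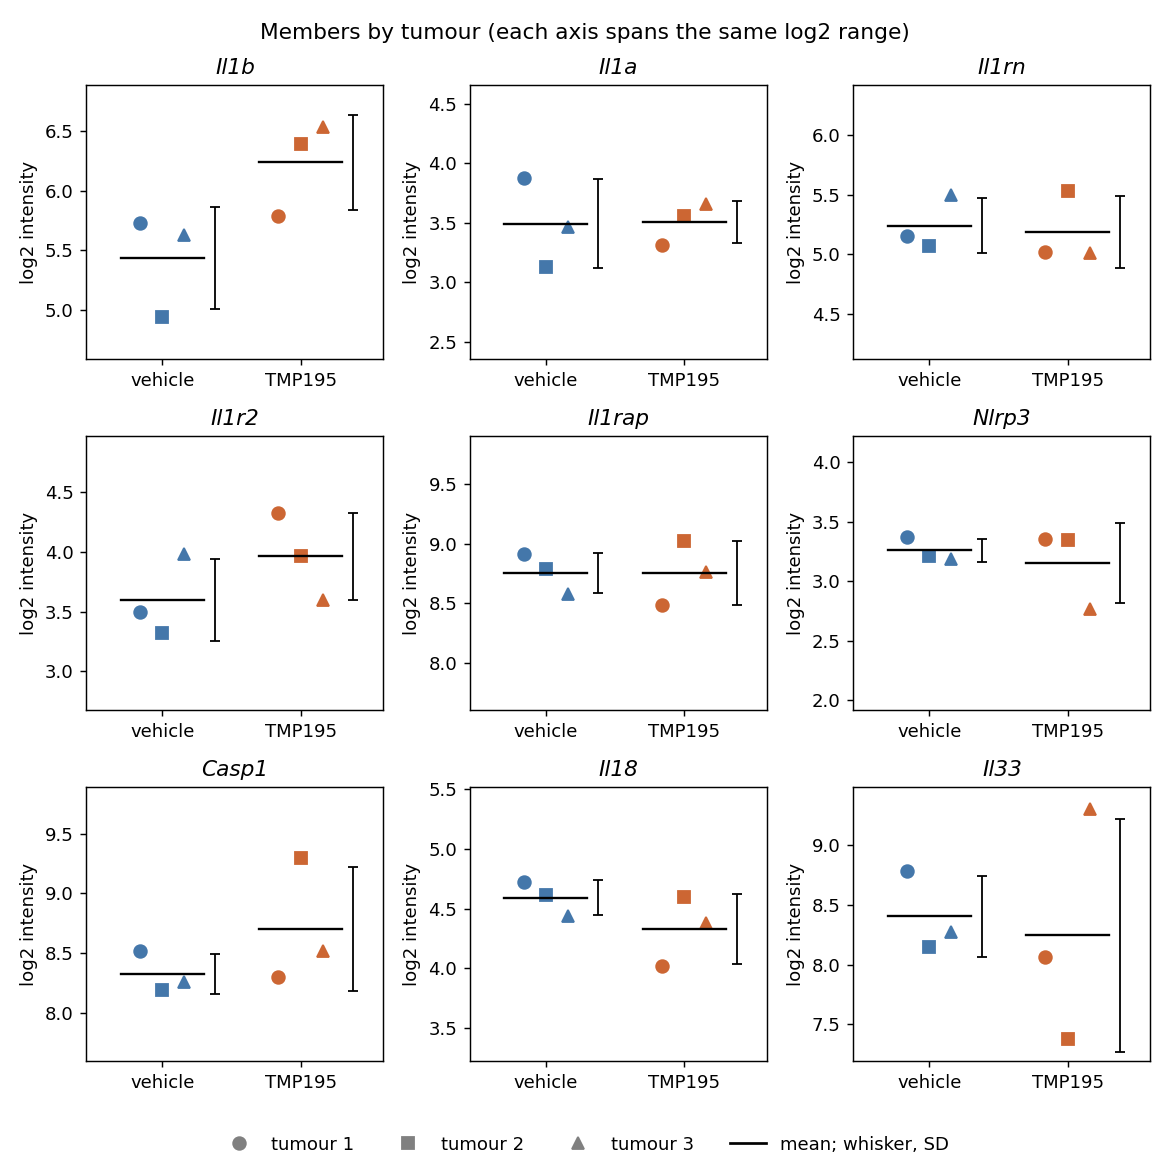
Log2 intensity of the 9 measured members in each tumour (vertical axes, each spanning the same log2 range), by dosing group, with symbols for tumours 1, 2 and 3, a bar for the mean of 3 tumours and a whisker for the SD. Il1b is the only one of the 9 whose groups do not overlap, and TMP195 tumour 1, at 5.79, lies close to vehicle tumour 1, at 5.73.

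Il1b, the gene of the secreted cytokine IL-1 beta, read 5.73, 4.94 and 5.63 in vehicle tumours 1, 2 and 3. In TMP195 tumours 1, 2 and 3 it read 5.79, 6.39 and 6.53. TMP195 tumours 2 and 3 were the highest, vehicle tumour 2 was the lowest, and the groups did not overlap. The gap between them, from vehicle tumour 1 to TMP195 tumour 1, was only 0.058. That is far less than the spread within the groups, whose means were 5.43 ± 0.43 (SD, n = 3) for the vehicle and 6.24 ± 0.40 (SD, n = 3) for TMP195. The difference was 0.80 ± 0.27 (SE), or 1.75-fold. Omitting vehicle tumour 2 gave 0.56. Omitting TMP195 tumours 1, 2 or 3 in turn gave 1.03, 0.73 and 0.66. When the second tumour of each group was omitted together, it was 0.48, or 1.40-fold. Since Il1b was chosen for groups that do not overlap, its sign could not turn in any of these. The mean of 10 skeletal muscle markers was 7.81 in vehicle tumour 2, where Il1b was lowest, and 4.48 to 4.92 in the other tumours. The 10 adipocyte markers were all lower under TMP195, with a median difference of -0.95, and their mean ran from 5.73 to 8.39 under vehicle and from 4.64 to 7.61 under TMP195, lowest in TMP195 tumour 2. The part of muscle and fat in the Il1b values was not tested. Il1b was of middling brightness, at percentile 49.5 of mean intensity, above 99.8% of the olfactory and vomeronasal receptor genes. Of the 9 measured members, Il1b alone had groups that did not overlap, where 6.68% of all genes did so, and since Il1b was chosen for this nothing is read from that count.

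Markers of the myeloid cells known to make Il1b were set beside it. Of 13 measured neutrophil markers, 6 were higher and 7 lower under TMP195, and the mean of the list ran from 4.11 to 4.34 in vehicle tumours and from 4.01 to 4.27 in TMP195 tumours. S100a8, a calcium-binding protein abundant in neutrophils, read 5.51, 6.80 and 5.46 under vehicle and 4.98, 5.31 and 5.08 under TMP195. A TMP195 tumour was higher in 0 of 9 pairings with a vehicle tumour. S100a8 was highest in vehicle tumour 2, where Il1b was lowest. Mmp9, a matrix protease stored in neutrophil granules, went the other way, at 5.30, 5.10 and 5.20 under vehicle and 5.47, 6.53 and 5.20 under TMP195, highest in TMP195 tumour 2. S100a9, the partner of S100a8, ran from 4.25 to 4.74 under vehicle and from 4.07 to 4.47 under TMP195. Cxcr2, a chemokine receptor of neutrophils, averaged 2.48 ± 0.10 (SD, n = 3) and 2.53 ± 0.46 (SD, n = 3) and lay below the 95th percentile of the olfactory and vomeronasal genes. The defining neutrophil genes Ly6g and Ngp, looked up after the values were seen, lay below it too.

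The 6 measured monocyte markers had 3 members higher and 3 lower, with list means of 5.96 to 6.24 under vehicle and 6.07 to 6.22 under TMP195. Ccr2, the chemokine receptor of inflammatory monocytes, differed by -0.23 ± 0.15 (SE). Vcan, a matrix proteoglycan, differed by 0.29 ± 0.23 (SE). Chil3, a chitinase-like protein of myeloid cells, read 2.23, 2.05 and 1.95 under vehicle and 2.59, 2.54 and 2.56 under TMP195, higher in 9 of 9 pairings on a dim probe set. Over all genes, 3.47% were likewise higher under TMP195 with no overlap. Mmp9, Vcan and Chil3, and below Cd209a, Mertk, Mrc1 and Trem2, are named after their values were seen. Of 9 dendritic cell markers, 5 were higher and 4 lower, with a median of 0.062. One of the lower ones, Cd209a, differed by -0.52 ± 0.11 (SE), with the TMP195 tumour higher in 0 of 9 pairings. None of the 11 measured macrophage markers was higher under TMP195, their median difference being -0.14, and the list mean ran from 7.89 to 8.10 under vehicle and from 7.71 to 7.87 under TMP195. Among them Adgre1, which encodes F4/80, and Csf1r, the receptor of the growth factor CSF1, were nearly level, at differences of -1.54e-04 ± 0.11 (SE) and -0.042 ± 0.15 (SE), too near 0 for their sign to be read. Mertk and Mrc1 differed by -0.47 ± 0.17 (SE) and -0.49 ± 0.29 (SE), and Trem2 by -0.18 ± 0.087 (SE). The groups did not overlap in 1 marker each of neutrophils, monocytes, dendritic cells and macrophages, where 6.68% of all genes did so. These were S100a8, Chil3, Cd209a and Trem2, of which Chil3 alone was higher under TMP195. The part of cell content in the Il1b values was not tested.

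Il1a, the gene of the alarm cytokine IL-1 alpha, had groups that overlapped. It read 3.88, 3.13 and 3.46 under vehicle and 3.31, 3.55 and 3.65 under TMP195, and both the highest and the lowest tumour were vehicle tumours. The difference was 0.015 ± 0.20 (SE), and it was -0.19 when the second tumour of each group was omitted. The probe set was dim, brighter than 90.1% of the olfactory and vomeronasal receptor genes.

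Il1rn, the gene of the antagonist that occupies the IL-1 receptor without signalling, read 5.15, 5.07 and 5.50 under vehicle and 5.02, 5.53 and 5.01 under TMP195. The groups overlapped, with TMP195 tumour 2 the highest and TMP195 tumour 3 the lowest. The difference was -0.054 ± 0.18 (SE). It was -0.23 without TMP195 tumour 2 and 0.075 without vehicle tumour 3. In TMP195 tumour 3, which held the highest Il1b value, Il1rn was thus at its lowest. In TMP195 tumour 2 both genes were high.

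Il1r2, the decoy receptor that binds IL-1 without transmitting a signal, read 3.49, 3.32 and 3.98 under vehicle and 4.33, 3.97 and 3.60 under TMP195. TMP195 tumour 1 was the highest, and of the 9 pairings of a TMP195 with a vehicle tumour, 7 had the TMP195 tumour higher. The difference was 0.37 ± 0.23 (SE), and it was 0.18 without TMP195 tumour 1 and 0.16 with array weights. The order of the TMP195 tumours was the reverse of that in Il1b, and the probe set was dim. Il1rap, the accessory chain shared by the receptors of IL-1, IL-33 and IL-36, was bright, at percentile 88.1. It read 8.91, 8.78 and 8.57 under vehicle and 8.49, 9.02 and 8.76 under TMP195. The groups averaged 8.75 ± 0.17 (SD, n = 3) and 8.75 ± 0.27 (SD, n = 3), a difference of -4.56e-04 ± 0.16 (SE).

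Nlrp3, the inflammasome sensor, read 3.37, 3.21 and 3.19 under vehicle and 3.35, 3.34 and 2.77 under TMP195. TMP195 tumour 3 was the lowest of the 6, and the other 5 lay close together. The difference was -0.10 ± 0.17 (SE), and it was 0.090 without TMP195 tumour 3. Nlrp3 was dim, brighter than 84.6% of the olfactory and vomeronasal genes. At this brightness a difference in Nlrp3 may not be detectable.

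Casp1, the protease that cuts the IL-1 beta and IL-18 precursors, read 8.51, 8.19 and 8.26 under vehicle and 8.30, 9.29 and 8.51 under TMP195. TMP195 tumour 2 stood 1.99-fold above the median of the other 5 tumours, which lay within 8.19 to 8.51. The difference was 0.38 ± 0.25 (SE). It was 0.086 without TMP195 tumour 2 and 0.021 without both that tumour and vehicle tumour 2, so it rested on 1 tumour. TMP195 tumour 2 was also the highest in the mean of 10 T and NK cell markers, at 4.50, where the vehicle tumours ran from 3.94 to 4.20 and TMP195 tumours 1 and 3 read 3.96 and 4.16. Of these 10 markers, 5 were highest in TMP195 tumour 2, as were 25.4% of all genes. By group, 6 of the 10 were higher and 4 lower under TMP195, and their part in the Casp1 value was not tested.

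Il18, the second substrate of caspase-1 in this set, read 4.72, 4.62 and 4.44 under vehicle and 4.02, 4.60 and 4.38 under TMP195. TMP195 tumour 1 was the lowest, and a TMP195 tumour was higher in 1 of 9 pairings. The groups averaged 4.59 ± 0.15 (SD, n = 3) and 4.33 ± 0.29 (SD, n = 3). The difference was -0.26 ± 0.16 (SE), and it was -0.10 without TMP195 tumour 1 and -0.39 without TMP195 tumour 2. Since Il1b was chosen for its values, no contrast between Il18 and Il1b is read from their signs.

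Il33, the gene of an alarm cytokine stored in the nuclei of epithelial, endothelial and stromal cells, varied most among the members. It read 8.78, 8.15 and 8.28 under vehicle and 8.06, 7.38 and 9.30 under TMP195. The highest and the lowest of the 6 values both came from TMP195 tumours, 1.93 apart. The group means were 8.40 ± 0.34 (SD, n = 3) and 8.25 ± 0.98 (SD, n = 3), and the difference of -0.16 ± 0.46 (SE) had no stable sign. It was 0.28 without TMP195 tumour 2, 0.035 without vehicle tumour 1 and -0.68 without TMP195 tumour 3. Krt5, a keratin of basal and myoepithelial cells, read 8.74, 7.87 and 8.54 under vehicle and 8.21, 6.79 and 8.62 under TMP195. As with Il33, vehicle tumour 1 and TMP195 tumour 3 were the highest and TMP195 tumour 2 the lowest. Krt14, the partner keratin of Krt5, did not follow Il33. It read 8.11, 7.75 and 7.72 under vehicle and 7.68, 7.60 and 7.47 under TMP195, lowest in TMP195 tumour 3, and is named after its values were seen.

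The fibroblast list, with 2 of 8 members higher and 6 lower, had means of 8.86 to 9.63 under vehicle. In TMP195 tumours 1, 2 and 3 its means were 9.45, 8.69 and 9.06. It was highest in vehicle tumour 3 and lowest in TMP195 tumour 2. The endothelial list, with 6 of 8 higher and 2 lower, ran from 6.58 to 6.85 under vehicle and from 6.80 to 6.90 under TMP195, and Pecam1, an adhesion molecule of endothelium, differed by 0.12 ± 0.14 (SE). The part of these cell types in the Il33 values was not tested.

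**Figure D2:**
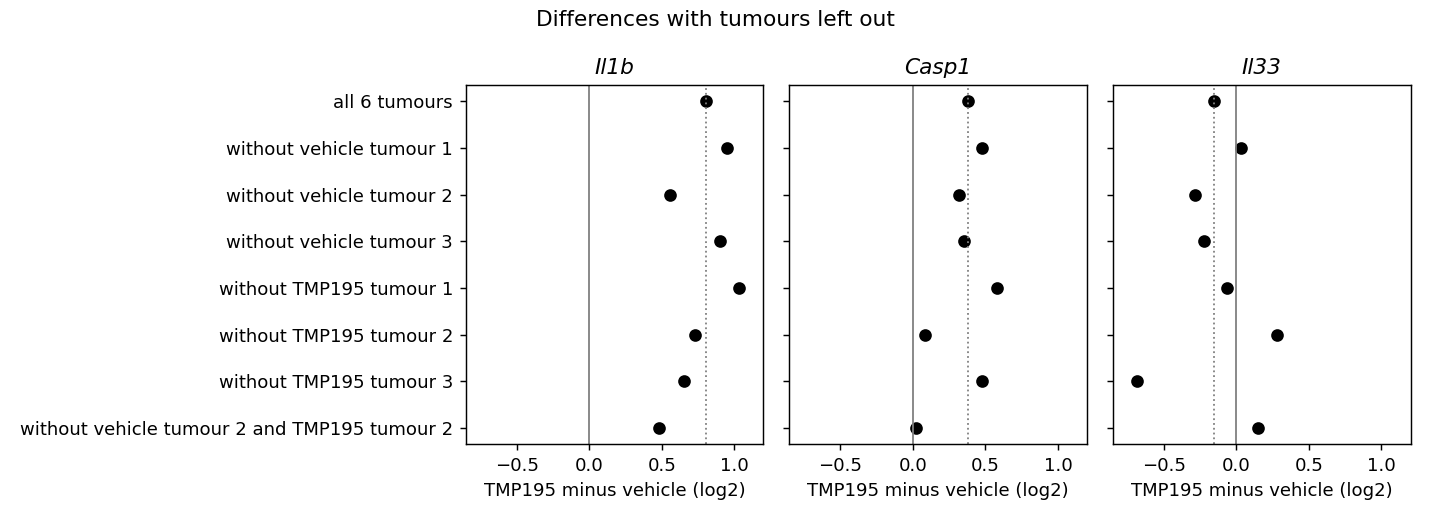
TMP195 minus vehicle (log2, horizontal axes) for Il1b, Casp1 and Il33 with all 6 tumours and with the tumours named on the left left out; the solid line marks 0 and the dotted line the value with all tumours. Il1b runs from 0.48 to 1.03 and, chosen for groups that do not overlap, could not reach 0 here; Casp1 drops to 0.021 once the second tumour of each group is omitted, and Il33 lies on both sides of 0.

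Across the 9 members, 4 were higher and 5 lower under TMP195, with a median of -4.56e-04, beside 9863 higher and 10074 lower among all genes. The members' median had no stable sign, lying between -0.13 and 0.11 over the alternatives, and 5 members were higher after median centring of the arrays. Differences of at most 0.1 in size were seen in 3 members, Il1a, Il1rn and Il1rap. The members varied more between tumours than most genes, with a median range over the 6 tumours of 0.75 where all genes had 0.42. This was not particular to them, though not all related genes shared it. In the pathway lists described below it was 0.70 for further IL-1 family genes, 0.58 for inflammasome genes and 0.48 for IL-1-induced genes. For signalling genes it was 0.28, below that of all genes. A member's highest value fell in TMP195 tumour 2 for 3 genes (Il1rn, Il1rap and Casp1), in vehicle tumour 1 for 3 (Il1a, Nlrp3 and Il18), in TMP195 tumour 3 for 2 (Il1b and Il33) and in TMP195 tumour 1 for Il1r2. The lowest value fell in vehicle tumour 2 for 4 members (Il1b, Il1a, Il1r2 and Casp1). The members thus did not share one order of tumours.

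The genes whose values over the 6 tumours were most like those of Il1b were sought among 1142 genes that were at or above the 30th percentile of intensity and ranged over at least 1 on the log2 scale, leaving out receptor genes of olfaction, microRNAs and unnamed gene models. They were B4galt6, a galactosyltransferase of glycolipid synthesis (Pearson r = 0.96), Zc4h2, a zinc finger protein (0.95), Hey1, a repressor downstream of Notch (0.93), Spire1, an actin nucleator (0.93), and Pcdhb11, a protocadherin (0.92). Each r describes 6 tumours, of which vehicle tumour 2 was the lowest for all 5 genes. B4galt6 read 8.05, 7.48 and 7.91 under vehicle and 8.19, 8.56 and 8.39 under TMP195.

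The other genes of the pathway were then compared, as 73 measured genes on 4 lists that hold no member. Of these, 0 passed an adjusted p of 0.05 in limma over all genes, in either direction, and 0 had an unadjusted p under 0.05. The smallest unadjusted limma p was 0.101, for Traf6. The 73 genes comprised 38 higher and 35 lower, and the groups did not overlap in 4 of them, or 5.48%, beside 6.68% of all genes. The median half-width of the 95% interval of a gene was 0.30, or 1.23-fold, over all genes. Among the 73 it was wider for some, such as Ptgs2, and narrower for others, such as Traf6, whose intervals are given with them.

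Further ligands and receptors of the IL-1 family were measured for 12 of 13 genes, of which 3 were higher and 9 lower, with a median of -0.084. Most were dim, and 4 of the 12 had a mean above the 95th percentile of the olfactory and vomeronasal genes. Il18r1, the binding chain of the IL-18 receptor, read 6.53, 6.05 and 6.01 under vehicle and 5.57, 6.42 and 5.02 under TMP195. TMP195 tumours 1 and 3 were the lowest and TMP195 tumour 2 lay among the vehicle tumours. The difference was -0.53 with a 95% interval of -1.34 to 0.29. Its partner chain Il18rap differed by -0.20 (interval -0.64 to 0.24). Il18bp, a secreted protein that captures IL-18, differed by 0.13 (-0.28 to 0.53). Sigirr, an inhibitory receptor of the family, differed by -0.20 (-0.75 to 0.36) and was lowest in TMP195 tumour 2, at 6.12. The IL-33 receptor gene Il1rl1 was not analysed here.

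The genes that carry the signal from the receptor to NF-kappaB varied little. Of 16 measured, 12 were higher and 4 lower, and their differences lay between -0.13 and 0.17 with a median of 0.036. That median was 0.0095 without TMP195 tumour 2, 0.010 without vehicle tumour 2, 0.0059 without vehicle tumour 1, -0.032 when the second tumour of each group was omitted and -0.010 with array weights. The adaptor gene Myd88 differed by 0.020 (interval -0.23 to 0.27) and the kinase gene Irak1 by 0.0041 (-0.24 to 0.24). Irak3, which encodes a brake on the pathway, differed by 0.065 (-0.29 to 0.42). Traf6, a ubiquitin ligase of the pathway, read 7.88, 7.72 and 7.81 under vehicle and 7.91, 8.001 and 8.003 under TMP195. Its groups did not overlap, and its interval ran from -0.043 to 0.38. Tollip, an adaptor that restrains the pathway, also did not overlap, at a difference of 0.085 (-0.12 to 0.29). Tollip is named here because of this value. Irak4 was not analysed here.

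Inflammasome and pyroptosis genes other than the members were split evenly, with 10 of 21 higher and 11 lower and a median of -0.0063, which ran from -0.050 to 0.076 over the alternatives. Pycard, the adaptor ASC that links sensors to caspase-1, read 7.65, 7.71 and 7.62 under vehicle and 7.95, 7.09 and 7.65 under TMP195. It was lowest in TMP195 tumour 2, the tumour in which Casp1 was highest. The difference was -0.094 (interval -0.59 to 0.40). The DNA sensor gene Aim2 differed by 0.10 (-0.25 to 0.46) and Nlrc4, a partner of the NAIP sensors of bacterial proteins, by 0.24 (-0.10 to 0.59). Casp4, which encodes the caspase that mouse studies call caspase-11, differed by 0.022 (-0.39 to 0.44). Gsdmd, the pore protein cut in pyroptosis, differed by -0.17 (-0.44 to 0.10).

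Genes known to be induced by IL-1 through NF-kappaB were next, and whether IL-1 induced them in these tumours was not tested. A mean above the 95th percentile of the olfactory and vomeronasal genes was reached by 18 of them. Of 24 measured, 13 were higher and 11 lower, with a median of 0.021, and the sign of the median turned without TMP195 tumour 2 (-0.022), when the second tumour of each group was omitted (-0.023) and when dim genes were left out (-2.20e-05). The groups did not overlap in 2 genes, Nfkbiz at 0.15 (interval -0.070 to 0.37) and Birc3 at -0.067 (-0.26 to 0.13), both named for that reason. Nfkbiz encodes a nuclear cofactor of NF-kappaB and Birc3 an inhibitor of cell death.

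Ptgs2, the prostaglandin synthase COX-2, read 7.54, 7.25 and 7.44 under vehicle and 7.54, 8.89 and 6.68 under TMP195. TMP195 tumour 2 was 2.75-fold above the median of the other 5, and TMP195 tumour 3 was the lowest of the 6. Both of these tumours had high Il1b. Tnf, another inflammatory cytokine, read 5.01, 5.06 and 4.87 under vehicle and 5.11, 5.64 and 4.66 under TMP195, again highest in TMP195 tumour 2 and lowest in TMP195 tumour 3. Tnfaip3, the feedback inhibitor A20, read 5.94, 5.62 and 5.80 under vehicle and 5.80, 6.50 and 5.93 under TMP195, 1.63-fold above the median of the others in TMP195 tumour 2. Ptgs2, Tnf and Tnfaip3 were thus higher in TMP195 tumour 2 than in TMP195 tumour 3, where Il1b read 6.39 and 6.53. Other genes of the list were close in these tumours, such as Nfkbia at 9.92 and 10.03 and the dim Cxcl2 at 2.93 and 2.92. The part of Il1b in these values was not tested.

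Nfkbia, the inhibitor that NF-kappaB induces in its own feedback, read 9.52, 9.62 and 10.01 under vehicle and 9.97, 9.92 and 10.03 under TMP195. Its difference was 0.26 (interval -0.079 to 0.59). The neutrophil-attracting chemokine genes Cxcl1 and Cxcl2 differed by 0.16 (-0.14 to 0.46) and -0.032 (-0.25 to 0.18), Cxcl2 being dim. Il6 was at percentile 1.63 of intensity, so dim that its values cannot be read as a level. TMP195 tumour 2 held the highest value in 9 of these 24 genes, 8 of the 16 signalling genes, 4 of the 21 inflammasome genes and 1 of the 12 further family genes. That is 22 of the 73 (30.1%), beside 25.4% of all genes.

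**Figure D3:**
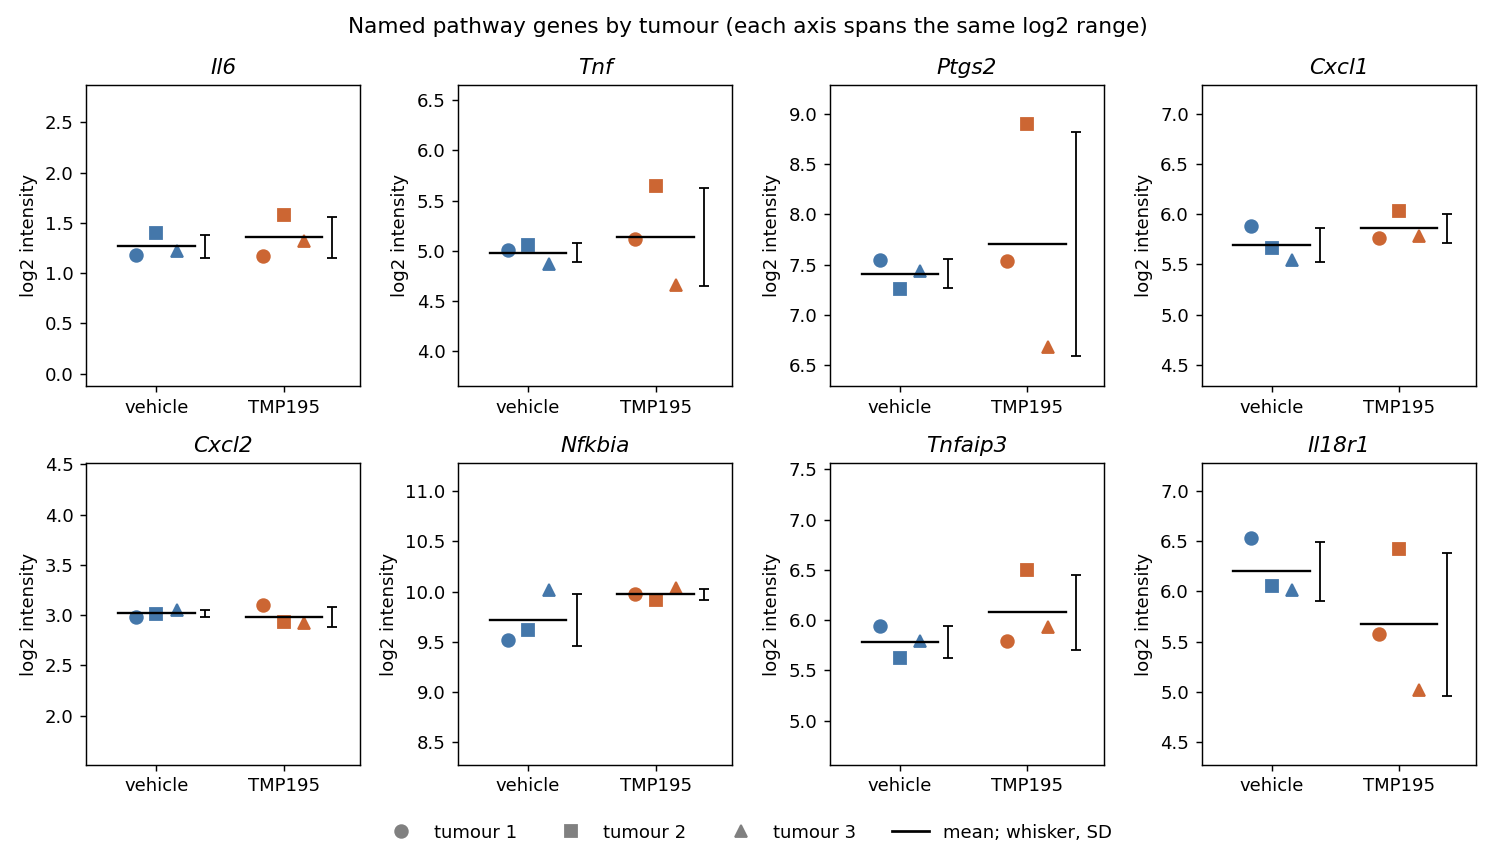
Log2 intensity in each tumour (vertical axes, each spanning the same log2 range) of the 7 named genes induced by IL-1 and of Il18r1, by dosing group, with a bar for the mean of 3 tumours and a whisker for the SD. Ptgs2, Tnf and Tnfaip3 are highest in TMP195 tumour 2 (8.89, 5.64 and 6.50), and Ptgs2 and Tnf are lowest in TMP195 tumour 3 (6.68 and 4.66).

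**Figure D4:**
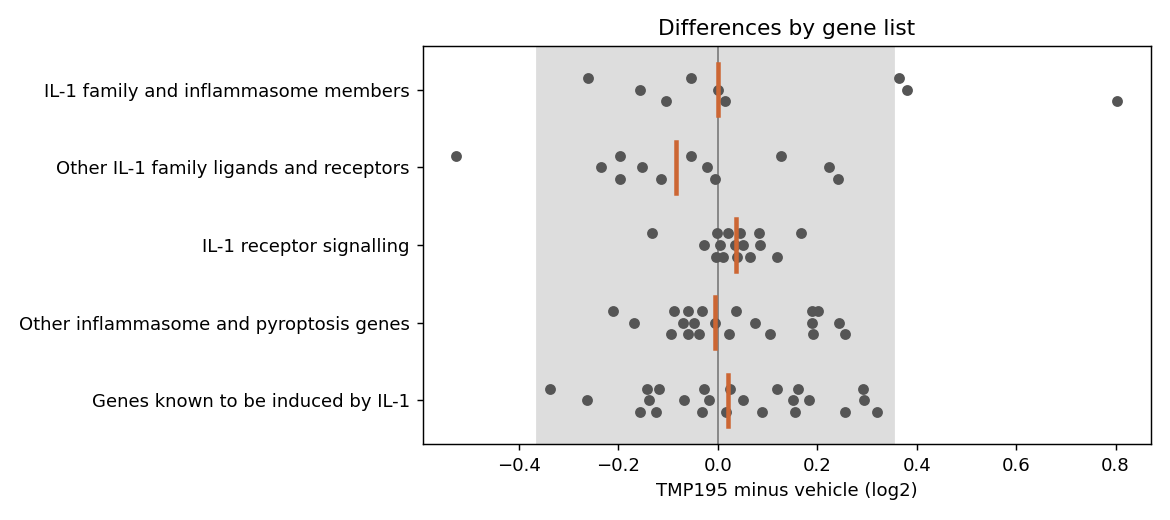
TMP195 minus vehicle (log2, horizontal axis) of each measured gene of the members and of the 4 pathway lists, with an orange bar at the list's median; grey spans the central 95% of all 19937 genes, from -0.36 to 0.36, and the vertical position of points within a list carries no meaning. Il1b, at 0.80, lies farthest right, Il1r2 and Casp1 lie just outside the grey span, and Il18r1, at -0.53, is the single gene beyond its left edge.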

How the data were processed

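Probe set signals of 6 whole tumours had been processed with RMA in Affymetrix Power Tools, as the submitters' processing notes list. Versions, scale and centring are not stated there. The authors deposited an intensity per probe set, read as linear because the values were above 0 with a highest value of 8137 or more on each array. Column medians were 45.6, 44.8 and 46.4 for the vehicle tumours and 46.0, 45.1 and 45.2 for the TMP195 tumours. RMA as usually run equalises the distributions of the arrays, so a shift of most genes would not be seen, and the number of arrays limits precision.

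Of 27359 probe sets, 21784 had 1 gene symbol in the platform annotation, 1620 several and 3955 none. Symbols were checked by Entrez ID against RefSeq (GRCm38.p6), found for 21693 probe sets, with 0 changes. The brightest probe set stood for a gene. The log2 of the deposited values entered limma 3.58.1 (R 4.3.3, two-sided, constant prior, Benjamini-Hochberg over 19937 genes). Nothing says more of the replicates than that each tumour came from its own mouse. No gene was left out as dim. The fit was tested on simulated data. Python 3.11.15 with pandas 2.3.3 drew counts and, with matplotlib 3.10.9, plots.

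Members and lists were chosen with earlier results of these data known. Named genes were the members, genes fixed by role for each list, and the 5 genes most like Il1b. Of the marker genes fixed by role, Ly6c2 was not analysed here. The markers of mast cells (2 of 8 higher under TMP195), keratinocytes (4 of 7) and skeletal muscle (0 of 10) were measured as well, and those of mammary epithelium were higher in 5 of 11. Alternatives were the replicate block, a trended robust prior, array weights, median centring, cyclic loess, leaving out dim genes, averaging the probe sets of a gene and leaving out tumours.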

Additional observations from a re-analysis of the deposited data

How the results depend on the processing

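Over the 14 alternatives the Il1b difference ran from 0.48 to 1.03, the lowest when the second tumour of each group was omitted. Its sign and the separation of its groups could have turned only under median centring and cyclic loess, since Il1b was chosen for that separation, so they show nothing of stability. In each alternative 0 genes passed an adjusted p of 0.05 in limma, and from 243 to 938 had an unadjusted p under 0.05. The number of members whose groups do not overlap ran from 1 to 3 when single tumours were left out, and it was 3 when the second tumour of each group was omitted (Il1b, Il1rn and Il18). Fewer tumours overlap less often: the share of all genes was 14.0% to 18.5% without 1 tumour and 28.8% without these 2. Casp1, Il1r2 and Il18 kept their sign in all alternatives that measured them (14, 13 and 14). Il1a changed sign in 4 of 13, Il1rap in 5 of 14, Il1rn in 3 of 14, Il33 in 4 of 14 and Nlrp3 in 1 of 13. With the 30th percentile filter Il1a, Il1r2 and Nlrp3 drop out, and 2 of the remaining 6 members were higher.

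Tumours of the same number did not deviate together (correlations of -0.21, -0.063 and -0.097 over all genes for numbers 1, 2 and 3). Whether the numbers pair the mice cannot be told from this, since a pairing that moved few genes would not show. With the replicate block the Il1b difference was 0.80 ± 0.28 (SE) and 0 genes passed in limma, with 397 at an unadjusted p under 0.05. The number of arrays and the dimness of Il1a, Il1r2 and Nlrp3 limit what could be seen.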

Other observations

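Values outside the comparisons, named after they were seen, are given without explanation. Cxcl5, a chemokine gene that IL-1 induces, read 3.18, 2.81 and 2.28 under vehicle and 2.77, 3.97 and 2.49 under TMP195, highest in TMP195 tumour 2, as Ptgs2 and Tnf were, on a dim probe set. Il1bos, which by its name runs opposite to Il1b, read 1.69, 1.88 and 2.15 under vehicle and 2.10, 2.13 and 2.30 under TMP195. It was brighter than 43.9% of the olfactory and vomeronasal receptor genes, so its values cannot be read as a level.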
